A study of Danio rerio with 60 samples.

Results

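The phase II conjugation enzymes join a small water-soluble group to a foreign or endogenous molecule, and 3 subfamilies of them were followed here in whole zebrafish larvae: the UDP-glucuronosyltransferases (UGT), the cytosolic sulfotransferases (SULT) and the glutathione S-transferases (GST). Members were taken by symbol from the reference name table, as every gene whose symbol begins with ugt and a digit, sult and a digit, or gst and a class letter, without gstp1.1. This gave 63 of the 27281 genes in the raloxifene table (28 UGT, 19 SULT and 16 GST genes) and 64 of the 27488 genes in the resorcinol table, where ugt1b3 is also listed. The genes with the symbol GSTM3 number 3 and are told apart by identifier.

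Each sample was RNA from 20 whole larvae of the AB/Tub background, pooled, so a value averages all tissues, and fewer cells of a type cannot be told apart from less RNA per cell. Exposure in HEPES-buffered E3 medium ran between 72 and 120 hours post-fertilization. One compound was raloxifene, a drug that acts on estrogen receptors, at 0.00201, 0.0201, 0.201, 2.01 and 20.1 µM, and its controls received 0.5% carrier. The other was resorcinol, a benzene ring with a pair of hydroxyl groups, at 0.0405, 0.405, 4.05, 40.5 and 405 µM, and its controls received 1% carrier. Each of the 12 groups held 5 pools, numbered 1 to 5 in the labels. No label names the carrier, and the sample titles give its percentage for the control pools only. Samples dosed with resorcinol bear a raloxifene abbreviation in their titles, so their description, which gives resorcinol, set their group. The study compared serial dilutions with the carrier control to look for toxic modes of action and a dose at which expression departs from control.

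Most UGT enzymes transfer glucuronic acid from UDP-glucuronate, SULT enzymes transfer sulfate from the donor PAPS, and GST enzymes attach glutathione to reactive electrophiles. Liver and intestine are their main sites in vertebrates, and the conjugates leave cells through membrane transporters. In humans raloxifene is cleared mainly as glucuronides made by enzymes of the UGT1A group, and phenols such as resorcinol are typical substrates of glucuronidation and sulfation.

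The raloxifene libraries held 7.44 to 10.98 M reads and the resorcinol libraries 7.78 to 12.1 M, apart from replicate 1 at 405 µM with 30.7 M. Every pair of libraries within a group differed by more than sampling noise (chi-square per degree of freedom of 4.01 or more). The values are the authors' normalized counts, that is, reads per gene divided by 1 factor per library. They are not divided by gene length, so levels are compared between samples for 1 gene and not between genes. The 2 tables were normalized separately, so levels are compared within 1 compound. Tests took in genes whose normalized count reached 10 in 5 or more libraries. For raloxifene, 49 members passed (18 UGT, 16 SULT and 15 GST), and for resorcinol, 50 did (18 UGT, 17 SULT and 15 GST). The members that did not pass include most of the ugt5c and ugt5g genes, ugt1b2, ugt1b4, ugt2b3, ugt5b5, sult3st1, sult3st4 and gstk2. The highest value of any of them in any library was 16.4, for sult3st5 in the raloxifene table.

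A few genes carried most reads of each subfamily. UGT1A1 (ENSDARG00000006220), named after the human bilirubin-conjugating enzyme, took on average 32.7% of the UGT counts in the raloxifene table and 39.4% in the resorcinol table. SULT4A1 (ENSDARG00000101967), whose mammalian relative is a brain protein, took 51.6% and 46.4% of the SULT counts, and gstp1.2 (ENSDARG00000104068), a pi-class GST, took 30.9% and 32% of the GST counts. Many members lie side by side in the genome. In the RefSeq annotation of the assembly GRCz12tu, 58 of the 62 member symbols were found, 34 of them had another family gene as a direct neighbour and 11 shared an end of the gene with another family gene. UGT1A1 shares an end with 5 other ugt1a genes, and ugt1b1, ugt1b2, ugt1b3, ugt1b4 and ugt1b7 share one with each other. The division of reads among such genes is uncertain, and the value printed for UGT1A1 may hold reads of the others.

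Each compound was fitted with limma on log2(normalized count + 1) over its 30 libraries, and a call needed a Benjamini-Hochberg adjusted p under 0.05 over all genes tested. Changes below are log2 differences on that scale, which understates changes of low genes. Without a term for the replicate number, no member was called in any comparison, by limma, edgeR or DESeq2. Same-numbered pools of different groups deviated together, so the numbers pair the samples, and limma was also fitted with the number as a block (the blocked fit below). It called 1 member against control for each compound. These were sult3st2, lower at 20.1 µM raloxifene, and UGT1A1, higher at 405 µM resorcinol.

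At 20.1 µM raloxifene, sult3st2 (ENSDARG00000093619), a zebrafish sulfotransferase of the SULT3 group, was lower than in control in each of the 5 numbered pairs. Its normalized counts in replicates 1 to 5 were 2.28, 7.83, 6.10, 34.0 and 7.12 at 20.1 µM, against 18.4, 24.3, 17.9, 54.7 and 11.5 in the control pools. Every dosed pool was below the control pool of its own number, but the dosed replicate 4 pool was above 4 of the 5 control pools, so the groups overlap. The log2 change was -1.36, a 2.57-fold decrease, with a standard error of 0.28 in the blocked fit (limma, adjusted p = 0.00718, n = 5). Without the block the standard error was 0.69 and the adjusted p was 1. The blocked call was lost without replicate 1, 2 or 3 (adjusted p = 0.0694, 0.0507 and 0.0722) and kept without replicate 4 or 5 (0.0114 and 0.00765). With edgeR and the block the adjusted p was 0.0463. The size depends on the added count, since sult3st2 is low: with 10 added in place of 1 the log2 change was -0.77.

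At the 4 lower raloxifene doses sult3st2 was not called. Its mean normalized count, from low to high dose, was 35.2 ± 18.9 at 0.00201 µM, 31.7 ± 28.1 at 0.0201 µM, 31.8 ± 38.2 at 0.201 µM and 29.0 ± 35.5 at 2.01 µM, then 11.5 ± 12.8 at 20.1 µM, beside 25.4 ± 17.0 in control (SD, n = 5 each). It was also the 1 member called in the blocked limma test of any difference from control over the 5 raloxifene doses (adjusted p = 0.0025). In resorcinol larvae its normalized counts at 405 µM were 10.4, 36.3, 39.0, 8.42 and 57.7, against 13.7, 34.8, 26.5, 9.54 and 66.1 in control. These groups overlap throughout, with a log2 change of -0.02 and an interval of -0.40 to 0.36 (2 blocked standard errors on either side). The difference between the compounds was not tested, because the tables were normalized separately.

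**Figure D1:**
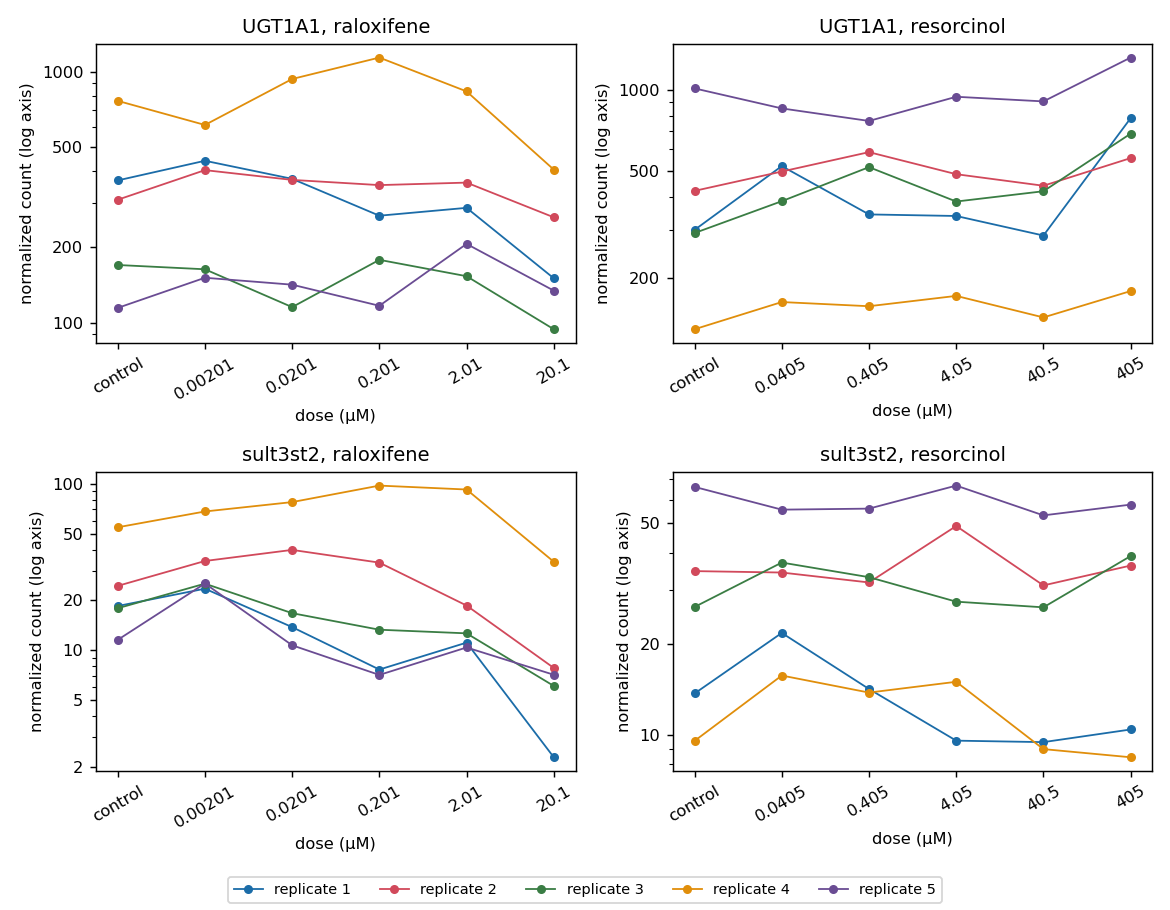
Normalized count on a log axis against dose in µM, with the control at the left, for UGT1A1 (top) and sult3st2 (bottom) in raloxifene (left) and resorcinol (right) larvae. Each line joins the pools of 1 replicate number. The 20.1 µM raloxifene points of sult3st2 lie below the control point of the same line in 5 of 5 lines, and the 405 µM resorcinol points of UGT1A1 lie above it in 5 of 5 lines.

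The share of all genes called sets the scale for these counts. At 20.1 µM raloxifene against control, 0.0936% of the 19241 genes tested were called without the block and 1.26% (242 genes) with it. Members made 0 and 1 calls of 49. In limma without the block 2 members had an unadjusted p under 0.05, beside 2.32% of all genes. In the blocked fit 16 of 49 members (32.7%) had an unadjusted p under 0.05, 4 higher and 12 lower, beside 12.3% of all genes. Of the members 35 of 49 (71.4%) had a change below 0, beside 52.5% of all genes, and their median was -0.17, beside -0.01.

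The other SULT members at 20.1 µM raloxifene went both ways and none was called. sult3st3, of the same group as sult3st2, had 9.10, 19.0, 14.8, 18.2 and 5.94 normalized counts at 20.1 µM, against 21.3, 14.4, 24.8, 63.1 and 13.3 in control, lower in 4 of 5 pairs (log2 change -0.85, adjusted p = 0.138 in the blocked limma fit). SULT1 genes, relatives of the mammalian phenol sulfotransferases, were split. sult1st6 had 64.9, 95.0, 48.8, 136 and 85.5 at 20.1 µM, against 106, 149, 109, 173 and 73.7 in control, lower in 4 of 5 pairs. sult1st4 had 14.8, 39.1, 11.3, 17.4 and 11.9 at 20.1 µM, against 19.8, 49.8, 32.7, 33.7 and 15.1 in control, lower in 5 of 5 pairs. Their log2 changes were -0.53 and -0.69, with adjusted p of 0.0796 and 0.0984 in the blocked limma fit.

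The highest SULT changes belonged to sult5a1 and sult1st5. sult5a1 had 10.2, 23.5, 20.9, 25.7 and 28.5 normalized counts at 20.1 µM, against 1.42, 14.4, 10.9, 18.5 and 12.4 in control. sult1st5 had 17.1, 14.5, 12.2, 23.2 and 14.2 at 20.1 µM, against 5.67, 9.96, 7.94, 17.7 and 7.99 in control. Both were above control in 5 of 5 pairs, with log2 changes of 1.07 and 0.73 that did not pass (blocked limma, adjusted p = 0.291 and 0.18). For SULT4A1, the pools held 1962, 1897, 1646, 950 and 1962 at 20.1 µM, against 2027, 1775, 1991, 1034 and 1925 in control. The groups overlapped and the log2 change was -0.06, with an interval of -0.19 to 0.06. sult6b1 and sult2st2, the next in control level, had log2 changes of -0.10 and -0.17. The 16 SULT members together had a median change of -0.09, with 10 below 0.

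UGT members at 20.1 µM raloxifene were mostly below control without a call, 14 of 18 with a change below 0 and a median of -0.30. UGT1A1 had 150, 263, 94.1, 407 and 134 normalized counts at 20.1 µM, against 368, 309, 170, 764 and 115 in control. The dosed pools were lower in 4 of 5 pairs and higher in replicate 5, and the groups overlapped. UGT1A1 had a log2 change of -0.61 with a blocked standard error of 0.18 (limma, adjusted p = 0.108). ugt5b4 and ugt5b3 belong to the UGT5 family, known from fish. ugt5b4 had 27.3, 48.1, 32.3, 92.0 and 53.4 at 20.1 µM, against 96.4, 70.8, 59.5, 147 and 41.7 in control (log2 change -0.70, adjusted p = 0.118). For ugt5b3 the log2 change was -0.81 (adjusted p = 0.247). ugt1b1 had the lowest UGT change, -0.98 (adjusted p = 0.13), at low counts of 1.14, 1.12, 3.49, 21.5 and 3.56 at 20.1 µM, against 4.25, 1.11, 13.9, 29.5 and 11.5 in control. The 4 UGT members with a change above 0 were ugt5b1 (0.33), ugt5f1 (0.18), ugt5c3 (0.04) and ugt2b5 (0.00). ugt1b5, the next after UGT1A1 in control count, had a log2 change of -0.11.

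GST members had log2 changes at 20.1 µM raloxifene between -0.58 (gsta.2) and 0.38 (gstt2), with a median of -0.15, and none was called. gsto1 (ENSDARG00000022183), an omega-class GST, was the 1 member of any subfamily whose 20.1 µM and control groups did not overlap. It had 97.9, 106, 114, 104 and 107 normalized counts at 20.1 µM, against 146, 136, 142, 123 and 129 in control, so every dosed pool was below every control pool. The log2 change was -0.35, a 1.27-fold decrease, with a blocked standard error of 0.12, and it was not called (limma, adjusted p = 0.186). Among all genes tested 0.561% had groups apart in this comparison, beside 2.04% of the members.

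The other GST genes with low p were gstr and gstt1b. gstr, of the rho class found in fish, had 666, 922, 766, 772 and 730 at 20.1 µM, against 872, 1162, 1000, 1073 and 626 in control (log2 change -0.27, adjusted p = 0.169). gstt1b, of the theta class, had 56.9, 69.3, 47.1, 82.0 and 51.0 at 20.1 µM, against 90.7, 122, 69.5, 80.8 and 64.8 in control (log2 change -0.47, adjusted p = 0.146). gstp1.2 went the other way. It had 1319, 1678, 1385, 1699 and 1478 at 20.1 µM, against 1193, 1620, 1266, 1561 and 1111 in control, above control in 5 of 5 pairs with overlapping groups (log2 change 0.17, adjusted p = 0.284). GSTM3 ENSDARG00000042533, a mu-class gene, had a log2 change of -0.20 (adjusted p = 0.338). All of these p are from the blocked limma fit.

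**Figure D2:**
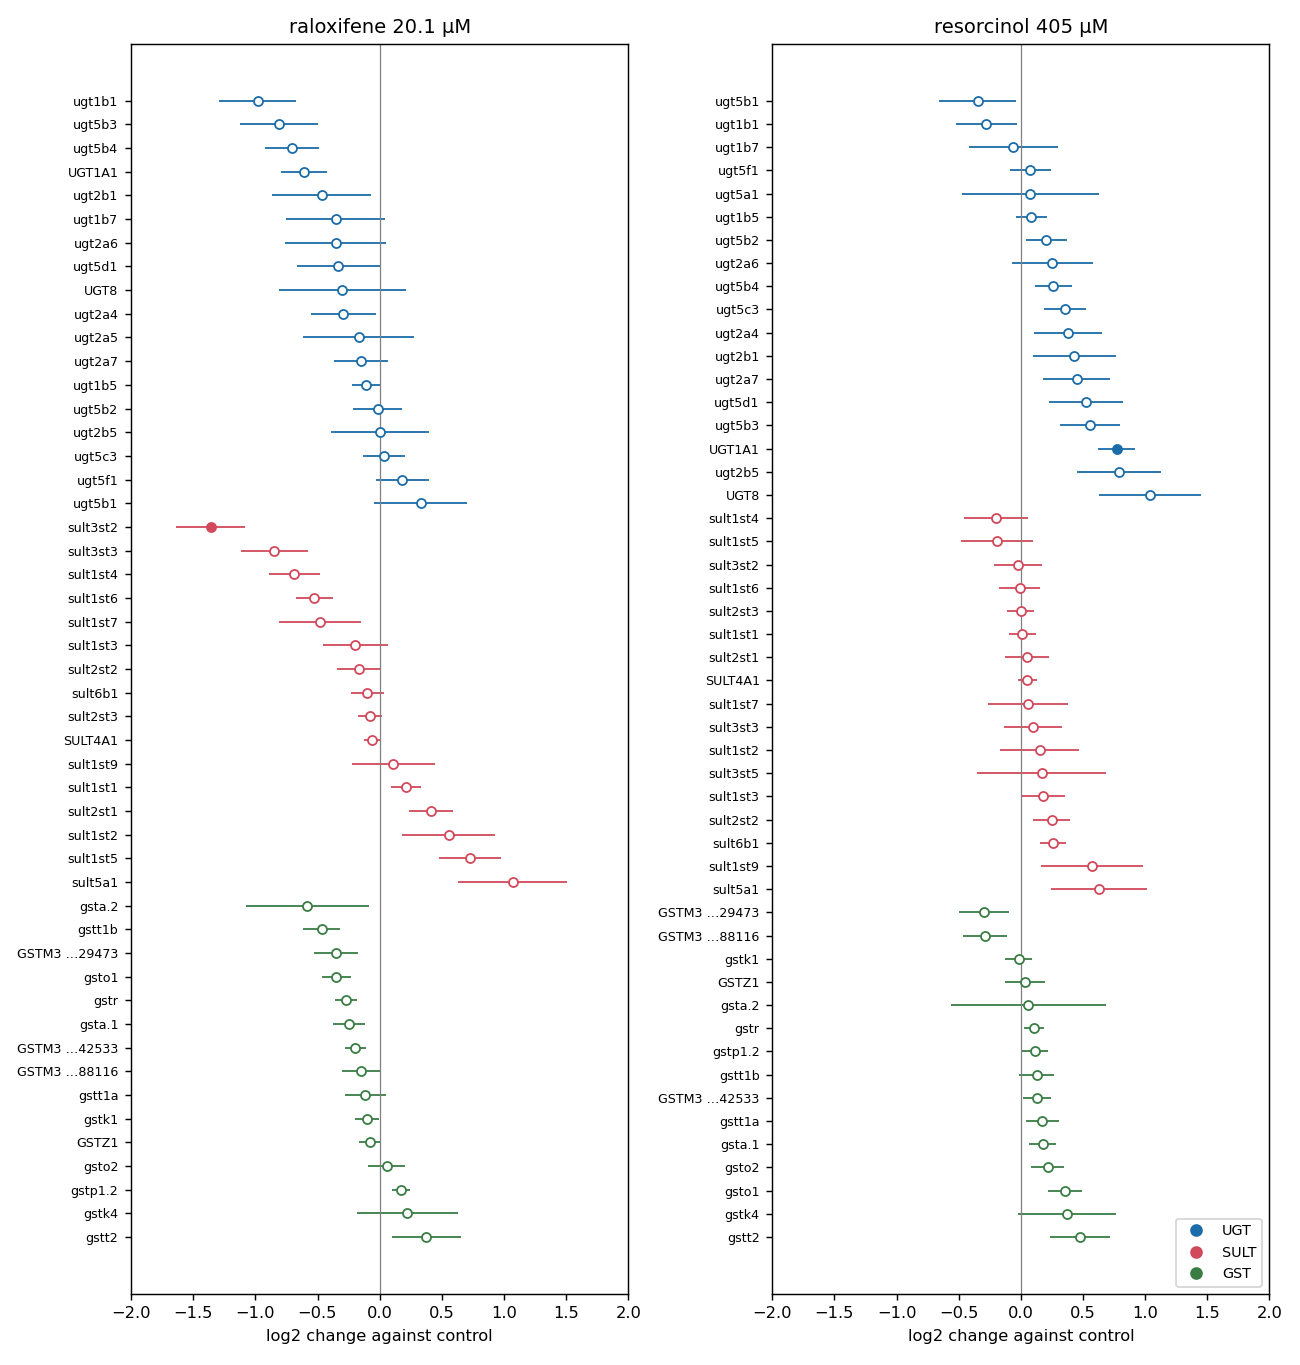
Log2 change against control of every member tested, at 20.1 µM raloxifene (left) and 405 µM resorcinol (right), sorted within UGT (blue), SULT (red) and GST (green). Points are limma estimates, bars are 1 standard error of the blocked fit on either side, and filled points had an adjusted p under 0.05. The filled points are sult3st2 at -1.36 and UGT1A1 at 0.77.

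Tissue markers differed in the same samples. Of 16 intestine marker genes tested at 20.1 µM raloxifene, 14 had a change below 0, with a median of -0.44, and 3 were called lower in the blocked limma fit. Of all genes 52.5% were below 0 and 47.5% above 0, and the blocked fit called 1.26% in this comparison. FABP6, an ileal bile acid binding protein in mammals, averaged 2664 ± 901 normalized counts at 20.1 µM and 5284 ± 2575 in control (log2 change -0.93, adjusted p = 4.89e-04). ANPEP ENSDARG00000103878, a brush border peptidase, had a log2 change of -1.04, and MEP1B ENSDARG00000040683, a meprin, one of -0.73. The summed level of the list was 5281 to 11375 at 20.1 µM and 7525 to 18661 in control, lower in 4 of 5 pairs. Liver markers had a median of -0.03 with 10 of 17 below 0, and 1 of them, ahsg2, was called lower. The liver sums were 12449 to 104197 at 20.1 µM and 9068 to 97723 in control. All 13 exocrine pancreas markers had a change above 0, with a median of 0.71 and 1 call, the chymotrypsin-like protease gene ctrl (0.99). The liver marker hp was low in both tables, with at most 4.47 and 2.58 normalized counts in any library. The part of these tissues in the members' changes was not tested.

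At the 4 lower raloxifene doses no member was called, with or without the block, while most members had changes just above 0. The comparisons share the control pools. All genes called without the block made 0% in each of these comparisons, and in the blocked fit 0.0987% at 0.00201 µM, 0% at 0.0201 µM, 0.0156% at 0.201 µM and 0.0208% at 2.01 µM. Members with a change above 0 numbered 38 of 49 at 0.00201 µM, 29 at 0.0201 µM, 34 at 0.201 µM and 35 at 2.01 µM, then 14 at 20.1 µM. Of all genes 48.7%, 51.4%, 51.0% and 49.2% were above 0 at the 4 lower doses, and 47.5% at 20.1 µM. The median change of the members was 0.14, 0.05, 0.11 and 0.10 at those 4 doses, against -0.17 at 20.1 µM. The median of all genes tested stayed between -0.01 and 0.01 at the 5 doses. In limma without the block 0 members had an unadjusted p under 0.05 at the 3 lowest doses and 1 at 2.01 µM. Of all genes 1.15%, 0.312%, 0.582% and 0.852% did at 0.00201, 0.0201, 0.201 and 2.01 µM. In the blocked fit the members with such a p numbered 5, 3, 3 and 7 of 49 at 0.00201, 0.0201, 0.201 and 2.01 µM. These are 10.2%, 6.12%, 6.12% and 14.3% of the members, beside 13.9%, 5.26%, 9.69% and 9.86% of all genes. The share of members was above that of all genes at 0.0201 and 2.01 µM and below it at 0.00201 and 0.201 µM. These gaps are not read as a result about the members. The lowest of those p at 2.01 µM belonged to sult1st2, a SULT1 gene (log2 change 1.16, adjusted p = 0.31). The any-dose test called 0.078% of all genes without the block and 1.83% with it, and 0 and 1 of the members. In it 0 members had an unadjusted p under 0.05 without the block, beside 1.23% of all genes, and 17 of 49 with it, beside 14.3%.

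**Figure D3:**
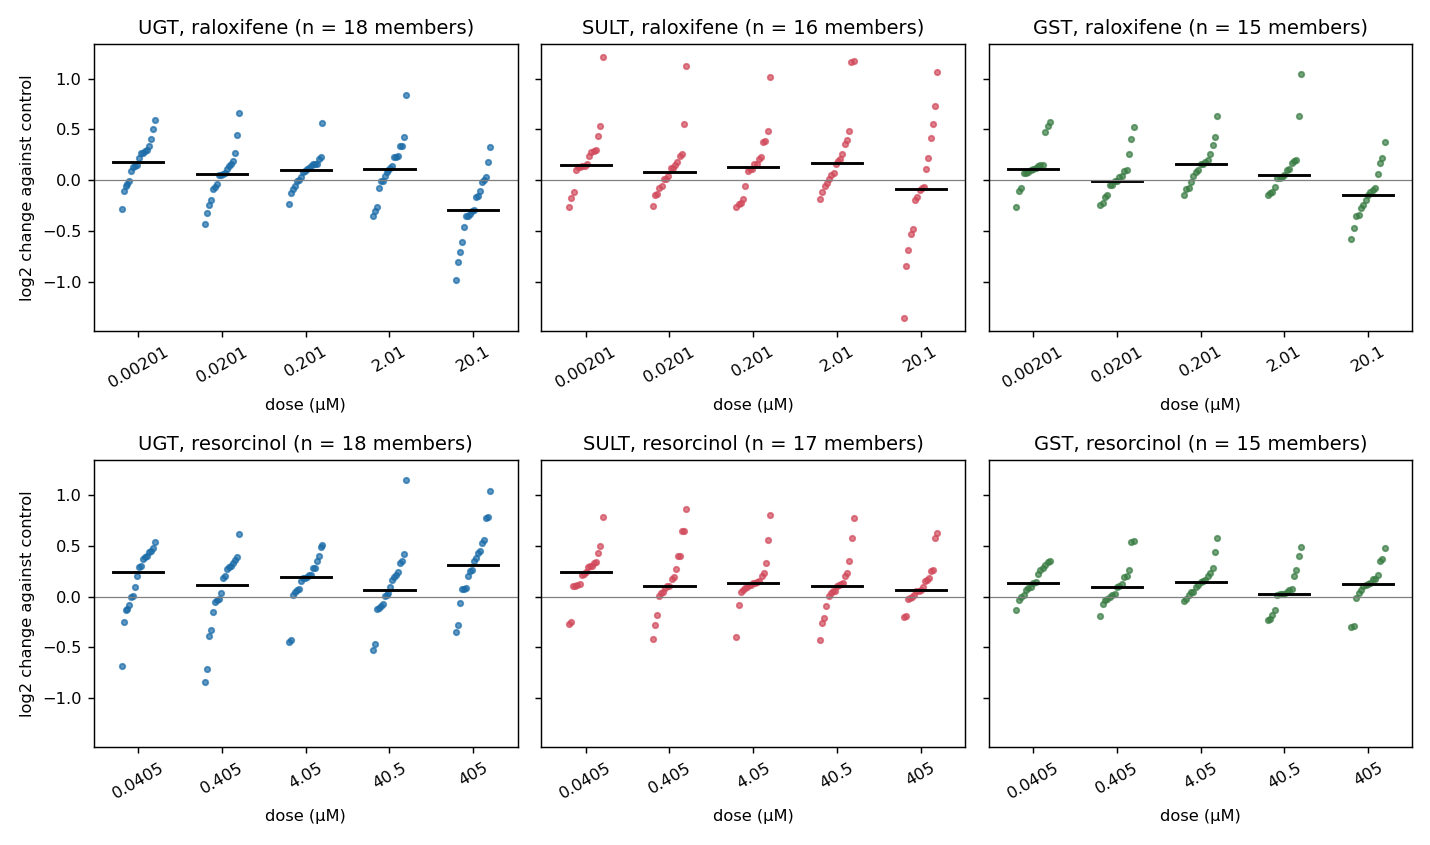
Log2 change against control at each dose in µM, for UGT (left), SULT (middle) and GST (right) members in raloxifene (top) and resorcinol (bottom) larvae. Each point is 1 member and each black line the median. In the raloxifene panels the medians at 20.1 µM are -0.30, -0.09 and -0.15. In the resorcinol panels the UGT medians from low to high dose are 0.25, 0.11, 0.19, 0.06 and 0.31.

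Set against the next dose, 1 UGT and 2 SULT members were lower at 20.1 µM raloxifene in the blocked fit. Against 2.01 µM, 0.0416% of all genes were called without the block and 0.899% with it, and the members made 0 and 3 calls of 49, all lower. In limma without the block 3 members had an unadjusted p under 0.05, beside 1.51% of all genes. All 3 were GST genes, so none of the called members was among them. No GST member was called, although the lowest GST change was -1.63. sult3st2 had a log2 change of -1.18 (adjusted p = 0.0329), UGT1A1 one of -0.75 (0.042) and sult1st6 one of -0.60 (0.0446), each lower in 5 of 5 pairs in the blocked limma fit. UGT1A1 averaged 210 ± 127 normalized counts at 20.1 µM and 368 ± 272 at 2.01 µM (SD, n = 5 each). In the blocked fit 15 of 49 members (30.6%) had an unadjusted p under 0.05, all lower, beside 10.2% of all genes. Of the members 42 of 49 (85.7%) were below 0, beside 49.7% of all genes. Leaving out replicate 1, 2, 3 or 4 left 0 of the 3 calls, and leaving out replicate 5 gave 4 member calls. With edgeR and the block, sult3st2 and UGT1A1 were called and sult1st6 was not, and with quantile normalization and the block none of the 3 was.

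At 405 µM resorcinol, UGT1A1 rose in every numbered pair. Its normalized counts in replicates 1 to 5 were 783, 557, 686, 179 and 1315 at 405 µM, against 301, 421, 293, 129 and 1010 in control. The lowest dosed pool and the lowest control pool were both replicate 4 and the highest pools of both groups were replicate 5, so the groups overlap although each pair differs the same way. The log2 change was 0.77, a 1.71-fold increase, with a blocked standard error of 0.15 (limma, adjusted p = 0.0126, n = 5). Without the block the standard error was 0.57 and the adjusted p was 1.00. With edgeR and the block the adjusted p was 0.00868. The blocked call was lost without replicate 1, 2 or 3 (adjusted p = 0.113, 0.0533 and 0.14) and kept without replicate 4 or 5 (0.0293 and 0.0297). The replicate 1 pool at 405 µM, the deepest library, had the largest pair difference of UGT1A1, and without that number the log2 change was 0.62. Without the block, leaving out 1 pool moved the log2 change more: it was 0.42 without control replicate 4, 0.48 without 405 µM replicate 5, 1.199 without 405 µM replicate 4 and 1.16 without control replicate 5.

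UGT1A1 had smaller log2 changes at the lower resorcinol doses, and none was called. Its mean was 483 ± 250 at 0.0405 µM, 473 ± 233 at 0.405 µM, 464 ± 289 at 4.05 µM and 438 ± 286 at 40.5 µM, then 704 ± 412 at 405 µM, beside 431 ± 340 in control (SD, n = 5 each). The log2 changes at the 4 lower doses were 0.30, 0.27, 0.21 and 0.10, in the same order. Against 40.5 µM, the change at 405 µM was 0.67, higher in 5 of 5 pairs, and did not pass (blocked limma, adjusted p = 0.222). At 20.1 µM raloxifene the same gene had a log2 change of -0.61, and the difference between the compounds was not tested.

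Among all genes, 0.0306% were called at 405 µM resorcinol without the block and 0.327% (64 genes) with it, and the members made 0 and 1 calls of 50. In limma without the block 0 members had an unadjusted p under 0.05, beside 1.54% of all genes. In the blocked fit 7 members did (14%, beside 10.8% of all genes), all higher. Changes above 0 were found in 39 of 50 members (78%), beside 50.2% of all genes, with a median of 0.14, beside 0.00. No member had groups apart, beside 0.322% of all genes. The any-dose test called 0.0409% of all genes without the block and 0.225% with it, and 0 members in both, with 0 and 4 members of 50 at an unadjusted p under 0.05 in limma, beside 0.541% and 7% of all genes.

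The UGT members held 5 of those 7 low p at 405 µM resorcinol, and 15 of 18 had a change above 0, with a median of 0.31. These 5 are 27.8% of the UGT members, beside 10.8% of all genes. At 0.0405, 0.405, 4.05 and 40.5 µM, 4, 2, 1 and 3 of 18 had an unadjusted blocked p under 0.05. These are 22.2%, 11.1%, 5.56% and 16.7%, beside 8.6%, 2.95%, 3.89% and 5.75% of all genes. Of them 3, 0, 1 and 2 were higher and 1, 2, 0 and 1 lower than control, so both at 0.405 µM were lower. UGT changes above 0 numbered 12, 10, 16 and 12 of 18 at those doses, with medians of 0.25, 0.11, 0.19 and 0.06. UGT8, whose mammalian relative makes the galactolipids of myelin, had 6.40, 8.85, 17.6, 6.74 and 27.8 normalized counts at 405 µM, against 1.24, 8.43, 14.8, 0 and 23.4 in control. It was higher in 5 of 5 pairs, by amounts that were small in replicates 2, 3 and 5 (log2 change 1.04, blocked standard error 0.41, adjusted p = 0.354). ugt2b5 had 13.2, 18.6, 25.2, 7.58 and 17.5 at 405 µM, against 3.73, 9.48, 12.7, 4.77 and 18.3 in control (log2 change 0.79, adjusted p = 0.403). ugt5b3 and ugt5c3 had log2 changes of 0.55 and 0.35, with adjusted p of 0.404 and 0.458 in the blocked limma fit. ugt5b4 was above control in 5 of 5 pairs with a log2 change of 0.26. ugt1b5 had 192, 125, 98.7, 123 and 108 at 405 µM, against 132, 120, 103, 130 and 111 in control, where the replicate 1 pool at 405 µM stood alone (log2 change 0.09). The UGT members below 0 were ugt5b1 (-0.35), ugt1b1 (-0.28) and ugt1b7 (-0.06).

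SULT and GST members at 405 µM resorcinol had log2 changes between -0.30 and 0.63, none called. sult6b1 had 697, 785, 733, 356 and 1108 normalized counts at 405 µM, against 455, 673, 546, 336 and 1130 in control, higher in 4 of 5 pairs (log2 change 0.26, adjusted p = 0.359). sult5a1 had 4.80, 8.85, 7.65, 9.26 and 22.7 at 405 µM, against 4.98, 4.22, 4.23, 7.15 and 9.15 in control (log2 change 0.63, adjusted p = 0.582). sult2st2, related to the mammalian hydroxysteroid sulfotransferases, had a log2 change of 0.25 and SULT4A1 one of 0.05. The 17 SULT members had a median of 0.06 with 12 above 0. gsto1 had 89.2, 124, 140, 62.3 and 124 at 405 µM, against 92.1, 66.4, 80.4, 56.0 and 126 in control, so replicates 2 and 3 carried the difference (log2 change 0.35, adjusted p = 0.346). gstt2 had a log2 change of 0.48 (adjusted p = 0.493), and GSTM3 ENSDARG00000088116 one of -0.29 (adjusted p = 0.576). The log2 change was 0.11 for gstp1.2, 0.11 for gstr and 0.18 for gsta.1, an alpha-class gene. The 15 GST members had a median of 0.13 with 12 above 0. These p are from the blocked limma fit.

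Most members were also above 0 at the lower resorcinol doses, at 3 of which no gene was called. In limma without the block 0% of all genes were called at 0.0405, 0.405 and 4.05 µM and 0.00511% at 40.5 µM, and in the blocked fit 0% at those 3 lower doses and 0.0664% at 40.5 µM. Against 40.5 µM, 0% of all genes were called at 405 µM without the block and 0.0102% with it. No member was called in any of these. Members with a change above 0 numbered 39 of 50 at 0.0405 µM, 34 at 0.405 µM, 44 at 4.05 µM and 36 at 40.5 µM, then 39 at 405 µM. Of all genes 49.6%, 51.3%, 52.3% and 49.2% were above 0 at the 4 lower doses, with medians between 0.00 and 0.01. The median change of the members was 0.21, 0.10, 0.15 and 0.05 at the 4 lower doses and 0.14 at 405 µM, so it did not grow with dose. Those 5 comparisons share the control pools. In limma without the block 0 members had an unadjusted p under 0.05 at any single resorcinol dose, and edgeR and DESeq2 without it called none. Of all genes 0.904%, 0.311%, 0.465% and 0.802% had such a p in limma without the block at the 4 lower doses, from low to high. In the blocked limma fit, members with an unadjusted p under 0.05 numbered 6, 4, 1 and 3 of 50 at 0.0405, 0.405, 4.05 and 40.5 µM. These are 12%, 8%, 2% and 6% of the members, beside 8.6%, 2.95%, 3.89% and 5.75% of all genes. Of them 5, 2, 1 and 2 were higher and 1, 2, 0 and 1 lower.

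Summed over each subfamily, the dosed and control ranges overlapped in every case. At 20.1 µM raloxifene the UGT sum was 711 ± 247 normalized counts and in control 928 ± 418 (SD, n = 5 each), lower in 4 of 5 pairs. The SULT sum was 3032 ± 286 at 20.1 µM and 3242 ± 326 in control, and the GST sum 4217 ± 476 at 20.1 µM and 4499 ± 719 in control, each lower in 4 of 5 pairs. These pair counts do not set the top dose apart for SULT, whose sum was also lower in 4 of 5 pairs at 0.00201, 0.0201 and 0.201 µM. The GST sum was higher in 5 of 5 pairs at 0.00201 and 0.201 µM. At 405 µM resorcinol the UGT sum was 1462 ± 665 and in control 1072 ± 621, higher in 5 of 5 pairs. It includes the called UGT1A1, which took on average 39.4% of the UGT counts, so it is not separate evidence from that gene. The SULT sum was 3196 ± 392 at 405 µM and 2968 ± 466 in control, higher in 5 of 5 pairs, and the GST sum 4746 ± 1055 at 405 µM and 4374 ± 979 in control, higher in 4 of 5. Lower doses came near these pair counts. The UGT sum was higher in 4 of 5 pairs at 0.0405, 0.405 and 4.05 µM and in 3 of 5 at 40.5 µM. The SULT sum was higher in 4 of 5 at 0.405 and 40.5 µM and in 3 of 5 at 0.0405 and 4.05 µM.

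**Figure D4:**
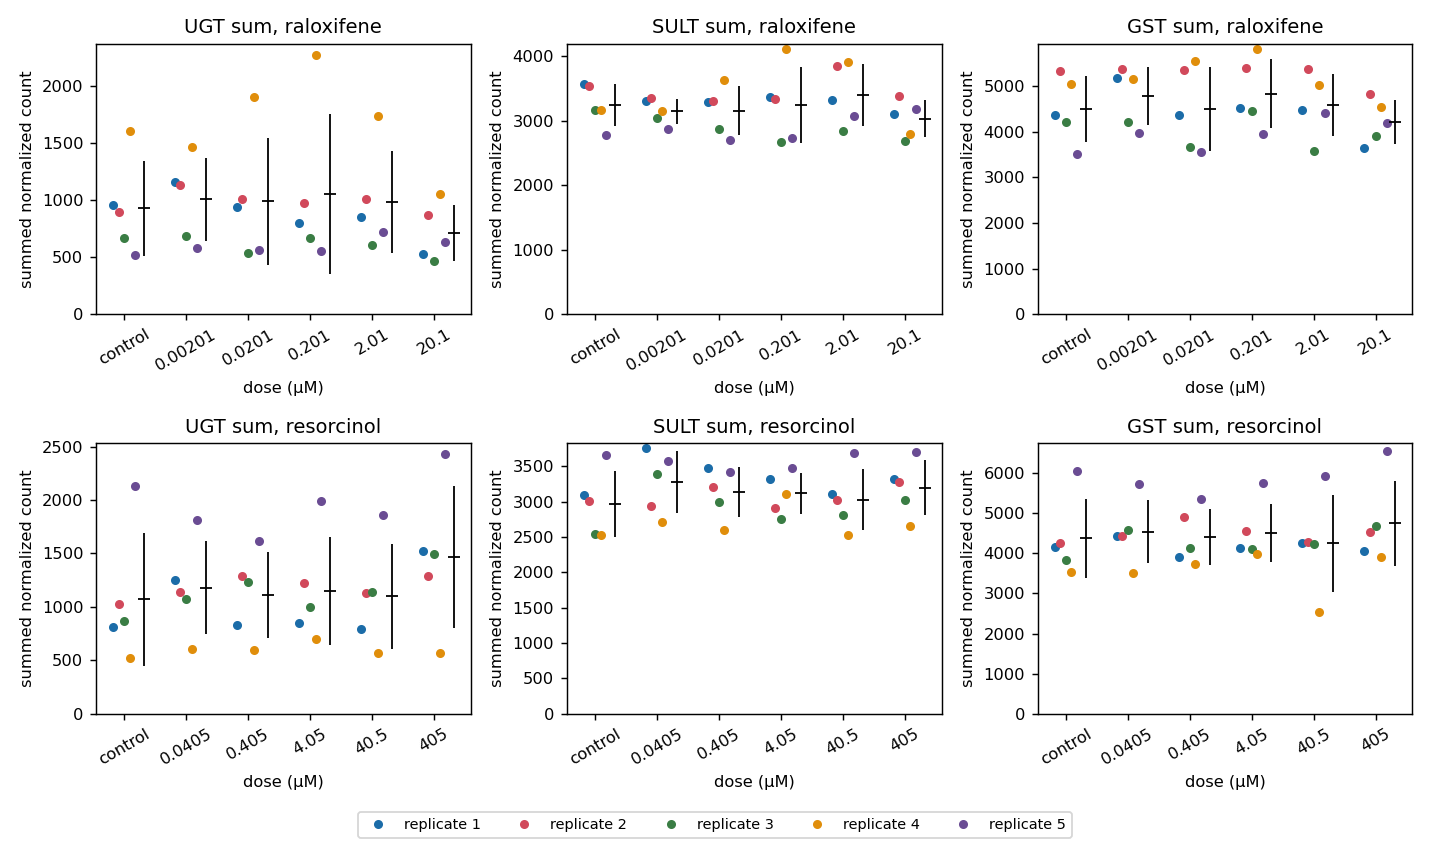
Summed normalized count of the UGT (left), SULT (middle) and GST (right) members against dose in µM, with the control at the left, in raloxifene (top) and resorcinol (bottom) larvae. Coloured points are pools by replicate number, and black marks are the mean ± SD of 5 pools. The raloxifene replicate 4 and resorcinol replicate 5 pools lie highest in every UGT group.

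Over the members of each subfamily, the replicate number took a median of 63.0% to 68.9% of the variance in the raloxifene table and 66.9% to 75.2% in the resorcinol table. The group took a median of 5.33% to 12.9% and 5.34% to 6.01%. Over all genes the number took 72.7% and 66.4%, and the group 5.75% and 6.18%. These shares were not adjusted for how many groups or numbers were fitted. A share above 0 therefore arises without any effect, and the group shares are not read as an effect of dose. Averaged over the 6 raloxifene groups, UGT1A1 stood at 314, 343, 146, 781 and 144 normalized counts in replicates 1 to 5, a 5.43-fold range. Over the 6 resorcinol groups it stood at 429, 497, 447, 157 and 964, a 6.15-fold range. The highest number was thus 4 in the raloxifene table and 5 in the resorcinol table. The replicate number took 84.9% and 86.9% of the variance of UGT1A1 in the 2 tables, and the group 7.34% and 7.43%. For sult3st2 the number took 65.8% and 90.9%, and the group 24.4% and 2.94%.

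Replicates 4 and 5 were the highest or the lowest for many members. Replicate 4 was the highest for 32 of 49 members in the raloxifene table, beside 36.1% of all genes, and replicate 5 the lowest for 20, beside 14.8%. In the resorcinol table replicate 5 was the highest for 36 of 50 members, beside 26.9% of all genes, and replicate 4 the lowest for 31, beside 19.6%. The median ratio of the highest to the lowest number was 4.24 for UGT, 2.48 for SULT and 2.19 for GST members in the raloxifene table, beside 1.97 for all genes. In the resorcinol table it was 4.42, 2.43 and 1.95, beside 1.83. sult1st2 had the widest range in the resorcinol table, 19.5-fold, and ugt1b1 in the raloxifene table, 12.6-fold. sult2st3 had the narrowest in both, 1.17-fold and 1.22-fold. SULT4A1 was instead lowest in replicate 4 of the raloxifene table (962) and in replicate 5 of the resorcinol table (937).

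Liver and pancreas markers were highest in the same numbers. The summed level of the liver markers, averaged over the 6 groups, was 17888, 18003, 12695, 104739 and 11943 in raloxifene replicates 1 to 5, and 17308, 44689, 45542, 16314 and 100279 in resorcinol replicates 1 to 5. All 17 liver markers tested and all 13 exocrine pancreas markers were highest in replicate 4 of the raloxifene table and in replicate 5 of the resorcinol table. Of the 16 intestine markers, 12 and 14 were highest in those numbers. Other lists varied, beside 36.1% and 26.9% of all genes highest in those numbers. Genes highest there were 11 and 6 of 13 regulators, 3 and 6 of 9 skin markers and 3 and 4 of 6 skeletal muscle markers. For raloxifene, 5 of 9 skin markers were instead highest in replicate 2. Of the pronephros markers, 2 of 7 for raloxifene and 3 of 8 for resorcinol were highest there. The pronephros sum was highest in replicate 1 for both compounds. The sources used here do not say what a replicate number shares, and the part of tissue content in the members' spread was not tested.

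**Figure D5:**
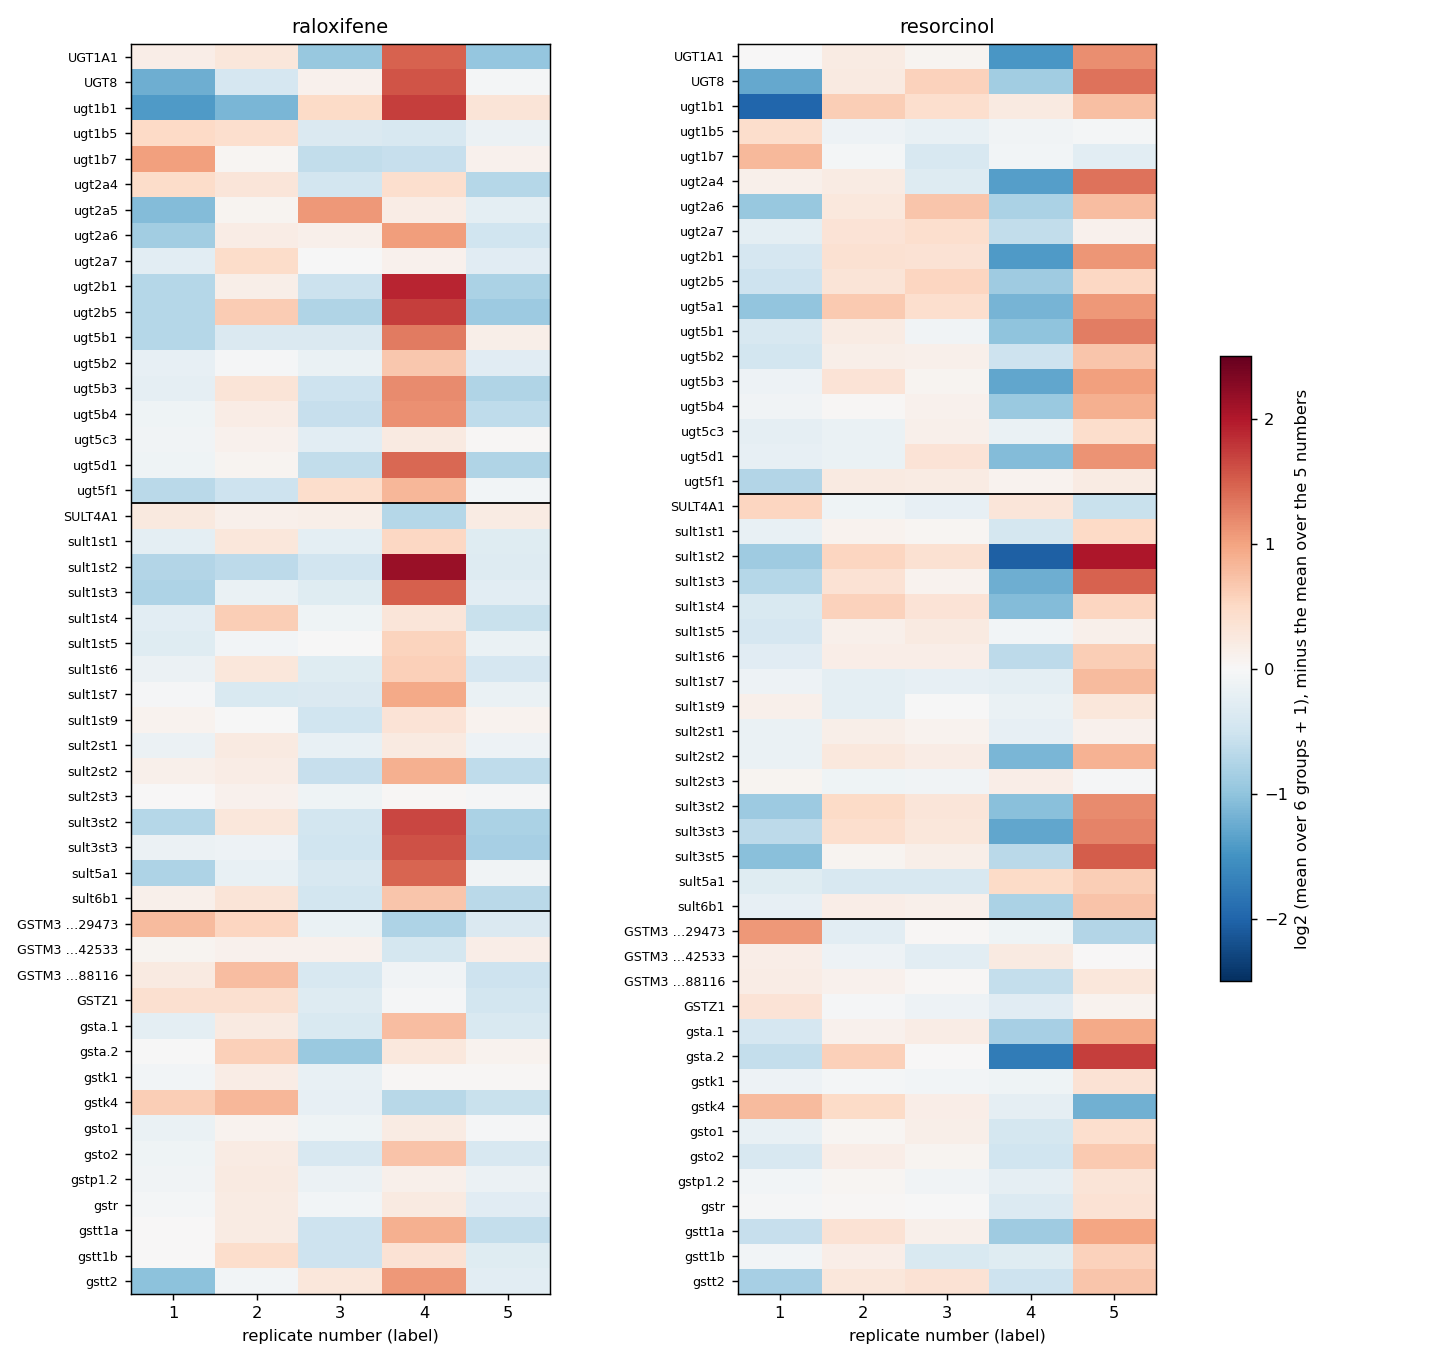
Level of each member tested in replicates 1 to 5, as the log2 of its mean normalized count over the 6 groups plus 1, minus the mean over the 5 numbers, for raloxifene (left) and resorcinol (right). Rows are UGT, SULT and GST members, divided by black lines. Red is above and blue below the member's own mean, and most members are red in replicate 4 of the raloxifene table and in replicate 5 of the resorcinol table.

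No gene of the lists that supply, control or follow the conjugation step was called without the block in limma at the top doses. Of 6 genes of UDP-glucuronate supply, 0 were called for either compound. At 405 µM resorcinol 5 of the 6 were above 0, beside 50.2% of all genes, with a median of 0.25. Their sum was higher in 5 of 5 pairs (1684 to 2222 at 405 µM and 1228 to 2132 in control). So were the sums of glutathione supply, other conjugating enzymes, exocrine pancreas markers and pronephros markers at 405 µM. The sums of the sulfate donor pathway, regulators, deconjugating enzymes and conjugate transport were higher in 3, 1, 2 and 2 of 5 pairs. The skin marker sum was higher in 0. Most of the UDP-glucuronate supply sum came from pgm1, a phosphoglucomutase. It averaged 1423 ± 180 at 405 µM and 1181 ± 173 in control (log2 change 0.27, adjusted p = 0.162 in the blocked limma fit). UGDH, which makes UDP-glucuronate, had a log2 change of 0.24. At 20.1 µM raloxifene 1 of the 6 was above 0, beside 47.5% of all genes, with a median of -0.07. Of 9 genes of the sulfate donor pathway none was called for either compound, with medians of 0.16 at 20.1 µM raloxifene and 0.12 at 405 µM resorcinol.

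Genes of glutathione supply were likewise uncalled, 0 of 9 at 20.1 µM raloxifene and 0 of 8 at 405 µM resorcinol, with medians of 0.07 and 0.03. Of 13 regulators, among them the xenobiotic receptors ahr2 and NR1I2 and the oxidative stress factor NFE2L2, none was called for either compound, and the medians were 0.04 and 0.07. Deconjugating enzymes (0 of 6) and other conjugating enzymes (0 of 12 at 20.1 µM raloxifene and 0 of 13 at 405 µM resorcinol) were not called either. Their medians were -0.17 and 0.00 at 20.1 µM raloxifene, and -0.02 and 0.18 at 405 µM resorcinol.

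The blocked fit made calls among exporters and phase I enzymes. Of all genes it called 1.26% at 20.1 µM raloxifene and 0.327% at 405 µM resorcinol. ABCC1, which exports glutathione conjugates, rose at 20.1 µM raloxifene to 351 ± 35 normalized counts, against 287 ± 52 in control (log2 change 0.31, limma adjusted p = 0.0427, higher in 5 of 5 pairs). It was the 1 call among 13 genes of conjugate transport, whose median was 0.04, and 0 were called at 405 µM resorcinol, where the median was 0.00. Of 14 phase I partners 2 were called higher at 405 µM resorcinol, with a list median of 0.18. cyp2k6 averaged 20.2 ± 13.0 at 405 µM and 4.56 ± 3.48 in control (log2 change 2.06, adjusted p = 0.0426), and cyp2k18 averaged 132 ± 54 at 405 µM and 76.5 ± 21.7 in control (log2 change 0.71, adjusted p = 0.0217), both higher in 5 of 5 pairs. At 20.1 µM raloxifene 0 of the 14 were called, with a list median of 0.06, and cyp2k6 had a log2 change of 1.88 (adjusted p = 0.0687).

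Tissue markers at 405 µM resorcinol had no call in liver (17 tested, median 0.07) or intestine (16 tested, 13 above 0, median 0.22). Of all genes 50.2% were above 0, and the blocked fit called 0.327% in this comparison. The liver sums were 15769 to 101613 at 405 µM and 12887 to 122125 in control, and the intestine sums 6865 to 26973 at 405 µM and 6694 to 29188 in control. All 13 exocrine pancreas markers were above 0, with a median of 0.95, and CEL ENSDARG00000017490, a bile-salt-activated lipase gene, was called (log2 change 1.13, adjusted p = 0.0483). Pronephros, skin and skeletal muscle lists held 1 call between them for the 2 compounds, the phosphate transporter gene SLC20A1 at 20.1 µM raloxifene (0.27). Their medians were -0.06, 0.01 and 0.12 at 20.1 µM raloxifene, and 0.06, -0.18 and 0.06 at 405 µM resorcinol. The part of these tissues in the UGT1A1 change was not tested.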

How the data were processed

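The deposited values are signal tables, 1 for each compound, holding read counts per gene that the authors normalized. cutadapt, STAR and DESeq2 are named with the build GRCz11, per the submitters' processing notes, which give no versions. For the counting tool and its strand setting, no source used here gives a name. Libraries were made with a stranded mRNA kit, per the labels' protocols. Every value was a whole number of reads after division by its library's step (100% within a tolerance of 0.1), which gave the depths and the reads for the edgeR and DESeq2 alternatives.

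Since the files held normalized values, limma 3.58.1 in R 4.3.3 (limma-trend, 6 group means per compound) was fitted on log2(value + 1) in place of a count model, for genes with at least 10 in at least 5 libraries, with Benjamini-Hochberg adjustment over all genes tested and a threshold of 0.05. edgeR 4.0.16 and DESeq2 1.42.0 were alternatives, as were another pseudocount, filter or scaling, array weights and leaving out each replicate. Deviations from the group means correlated above 0.1 in 75 of 75 same-numbered pairs in each table (lowest 0.344 and 0.194), so the numbers pair the samples and blocked values are given. The labels do not say what same-numbered pools share or that pools came from separate cultures, so p-values without the block measure the spread between pools. Blocked p-values measure the spread between pools that is left after the differences between numbers are taken out.

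Members and gene lists were chosen with earlier results of these data known. The rule for named members took every member called in either fit against control or in the any-dose test, the 3 members of each subfamily with the lowest blocked p at the highest dose, and the 3 with the highest mean in the controls. From the other lists it took members called in either fit at the highest dose, up to 3 a list. Genes named beyond this rule were chosen after their values were seen.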

Additional observations from a re-analysis of the deposited data

Results flagged for a closer look

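Of 72 checks, each of 1 named member or subfamily sum in 1 group of 5 pools at the top dose or in control, 9 found a pool apart from the other 4 by Dixon's criterion. Its nominal rate of about 1 check in 20 holds for normally distributed values and independent checks. These checks used untransformed counts and share pools, and the sums contain named members, so the 9 are not read as an excess. The 9 values came from 6 pools, and replicate 4 of the raloxifene set gave 4 of them. At 20.1 µM it had 34.0 normalized counts of sult3st2, against 2.28 to 7.83 in the other pools, and 21.5 of ugt1b1, against 1.12 to 3.56. In the raloxifene control it had 1034 counts of SULT4A1, against 1775 to 2027, and 386 of GSTM3 ENSDARG00000042533, against 562 to 607. Replicate 2 at 20.1 µM raloxifene had 39.1 counts of sult1st4, against 11.3 to 17.4. At 405 µM resorcinol, replicate 1, the deepest library, had 192 counts of ugt1b5, against 98.7 to 125, and replicate 5 had 22.7 of sult5a1, against 4.80 to 9.26. The resorcinol control replicate 5 had 1246 counts of gstr, against 688 to 824, and a GST sum of 6051, against 3544 to 4270.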

How the results depend on the processing

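Without a replicate block no alternative run called a member in any comparison. With the replicate block, the members called numbered 1 at 20.1 µM raloxifene against control, 3 against 2.01 µM, 1 over any raloxifene dose and 1 at 405 µM resorcinol. Leaving out 1 number in the blocked fits gave 0 to 5, 0 to 4, 0 to 4 and 0 to 1 calls in those comparisons. Without replicate 5 the 5 calls at 20.1 µM were ugt5b4, UGT1A1, sult1st6, gstr and sult3st2. TMM scaling with the block, chosen after seeing the data, gave 1, 3, 1 and 1 calls. Quantile normalization with the block, also chosen after seeing the data, gave 1, 0, 1 and 1, so the 3 calls of 20.1 against 2.01 µM were lost. edgeR with the block gave 1, 2, 1 and 1, and 1 over any resorcinol dose. The block changed no other call of a member.

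Over the named members at the top doses, 411 raloxifene and 413 resorcinol settings kept direction and side of the threshold, 10 and 6 became called and 12 and 12 changed sign. Those that changed sign were all small, uncalled log2 changes. With array weights the raloxifene values were 0.0479 for ugt1b5, 0.187 for sult6b1 and 0.0217 for sult2st2, and the resorcinol value of ugt1b5 was -0.0342. In the blocked fit without replicate 1, sult6b1 had 0.0355 for raloxifene and ugt1b5 had -0.0290 for resorcinol. Leaving out pools gave raloxifene ranges of -0.242 to 0.0396 for ugt1b5, -0.244 to 0.130 for SULT4A1, -0.366 to 0.0346 for sult6b1 and -0.391 to 0.0394 for sult2st2. The resorcinol ranges were -0.0672 to 0.172 for ugt1b5, -0.0745 to 0.624 for ugt5b4, -0.0893 to 0.609 for sult2st2, -0.111 to 0.207 for SULT4A1 and -0.125 to 0.447 for gsta.1. The cause was not tested.

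Members with few reads, such as ugt1b1 and UGT8, rest on counts near 1 in some pools, where the added 1 shrinks the log2 change and counting error is large.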
